A study of Homo sapiens with 18 samples.

Results

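The genes described here are the ZNF genes of human chromosome 19, which code for C2H2 zinc finger proteins and lie in tandem clusters along that chromosome. They are the protein-coding genes on chromosome 19 whose symbol is ZNF followed by digits and whose mean over the 18 libraries was at least 0.5 CPM (counts per 1e6 summed gene counts of a library). Of 239 such genes, 223 reached that level, out of 60252 gene rows in all. The cells were ZR-75-1, an established luminal breast cancer line. A control line labelled SHC and a line with knockdown of ADAR, the enzyme that edits adenosine to inosine in double-stranded RNA, were each sampled untreated, in DMSO and after 16 h in 100 nM triptolide. Triptolide binds the XPB subunit of the general transcription factor TFIIH and blocks transcription by RNA polymerase II. Each of the 6 groups held 3 libraries numbered as biological replicates, all 18 from cells kept in 1% serum during treatment. The labels do not say how the knockdown was made or how many clones each line holds.

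Many human C2H2 zinc finger proteins pair a KRAB domain with an array of fingers. The fingers read DNA, and the KRAB domain binds the co-repressor TRIM28 (KAP1), which brings the histone methyltransferase SETDB1 and heterochromatin proteins to the site. Many of these proteins silence transposable elements, and the genes themselves arose by repeated local duplication, so that neighbours share sequence.

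The linker between fingers has, in most of the family, the residues threonine, glycine, glutamate, lysine and proline. Of the 223 members, 222 coding sequences were read from GRCh37 (that of ZNF274 was not), and 192 held at least 1 such linker, 1309 in all. Linkers were found by searching for exactly these 5 residues, and their place between fingers was not checked. Each line below gives the first linker of 1 member 5′ to 3′, with the codons of these 5 residues in capitals and 1 codon on either side. They are shown for the bases, which differ at some positions, since the search fixed the 5 residues. Whether reads over a linker can be assigned to 1 gene was not tested.

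ZNF91: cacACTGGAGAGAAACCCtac
ZNF121: catACTGGGGAGAAACCCtat
ZNF146: cacACTGGAGAAAAACCTttt
ZNF45: cacACTGGTGAAAAACCCtac
ZNF439: cacACTGGAGAGAAACCGtat
ZNF132: cacACTGGAGAAAAGCCTtac
ZNF613: cacACTGGGGAGAAACCTcat
ZNF350: catACAGGAGAGAAACCCcac

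These first linkers had 59 distinct codings over the 192 members, and the commonest, that of ZNF91, was found in 32. The number of fingers ranged from 1 to 36 with a median of 12, and was highest in ZNF208 (36), ZNF729 (34) and ZNF91 (32). A KRAB box motif was found in 153 of the 222 coding sequences. A median of 2.36% of the 50-base windows of a member's exons occurred elsewhere on chromosome 19. The share was at least 10% in 26 members and highest in ZNF98 (46.4%) and ZNF492 (42.2%), whose counts are therefore uncertain. At least 20% of the exon length overlapped another gene on the same strand in 15 members and on the opposite strand in 15.

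The libraries held 26.7e6 to 35.7e6 gene counts. Mitochondrial ribosomal RNA took 20.2 to 37.1% of them without triptolide and 42.7 to 55.2% with it. Its part in the results on triptolide was not tested, beyond the other scalings given beside them. ADAR was lower in the knockdown library of every same-numbered pair of libraries, but its change did not pass edgeR's quasi-likelihood test in any treatment (log2 change -0.70 untreated, -0.69 with DMSO and -1.46 with triptolide, adjusted p = 1, 1 and 0.325). With the replicate number as a block, the triptolide comparison passed (adjusted p = 1.9e-04). All 10 luminal markers were at 1 CPM or more, as were 1 of 4 basal, 1 of 5 stromal and 1 of 2 endothelial markers. The basal KRT17 (1.53 CPM), the stromal COL1A1 (15.6) and the endothelial VWF (2.30) were those at that level, while the leukocyte marker PTPRC was at 0.069 and the stromal LUM at 0 CPM.

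Most members were expressed at a low level. Their mean over the 18 libraries had a median of 7.94 CPM after TMM scaling, the scale of all levels from here on, with quartiles of 4.18 and 13.8. Of the 223, 66 were below 5 CPM, 130 lay from 5 to 20 and 27 were at 20 or more. The members together came to 2462 CPM. ZNF91, a repressor of SVA and L1 retrotransposons, had the highest mean (99.7 CPM), followed by ZNF121 (91.7), ZNF146 (69.2), ZNF83 (48.0) and ZNF28 (45.1). Per kb of exon, the order changed: ZNF146, a short protein made almost only of fingers, was highest at 16.7 CPM per kb, then ZNF121 (12.7), ZNF91 (9.67), ZNF552 (7.73) and ZNF28 (7.55), against a median of 1.34.

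Just inside the limit of membership, which used unscaled CPM, were ZNF671 (0.538), ZNF404 (0.809) and ZNF763 (0.869), and just outside were ZNF540 (0.456), ZNF575 (0.386) and ZNF223 (0.368). ZNF439 and ZNF671 would have missed it over the 12 libraries without triptolide, so they are members only through the libraries in which they were high. Their rise with triptolide is therefore a description, and the counts of members that rose are given with and without them. Conversely, 7 members were below 0.5 CPM over the 6 libraries with triptolide. All 223 also passed the low-count filter of the test.

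The members took a smaller share of the counts after triptolide. In the control line they made up 0.312% ± 0.010 of gene counts with DMSO (SD, n = 3) and 0.148% ± 0.031 with triptolide. In the knockdown line the shares were 0.339% ± 0.010 and 0.135% ± 0.028. The untreated libraries held 0.322% ± 0.037 in the control line and 0.294% ± 0.018 in the knockdown line. Among counts of nuclear protein-coding genes only, which leaves out the mitochondrial RNA, the share went from 0.494% ± 0.038 to 0.353% ± 0.095 in the control line and from 0.484% ± 0.027 to 0.300% ± 0.061 in the knockdown line. On this narrower base the DMSO and triptolide libraries still did not overlap in either line (lowest DMSO value 0.463 against a highest triptolide value of 0.461 in the control line, 0.459 against 0.370 in the knockdown line), although the gap in the control line was very small. In bulk RNA, fewer cells expressing a gene and less of its RNA per cell cannot be told apart, and a share can also fall because other RNA rose.

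**Figure D1:**
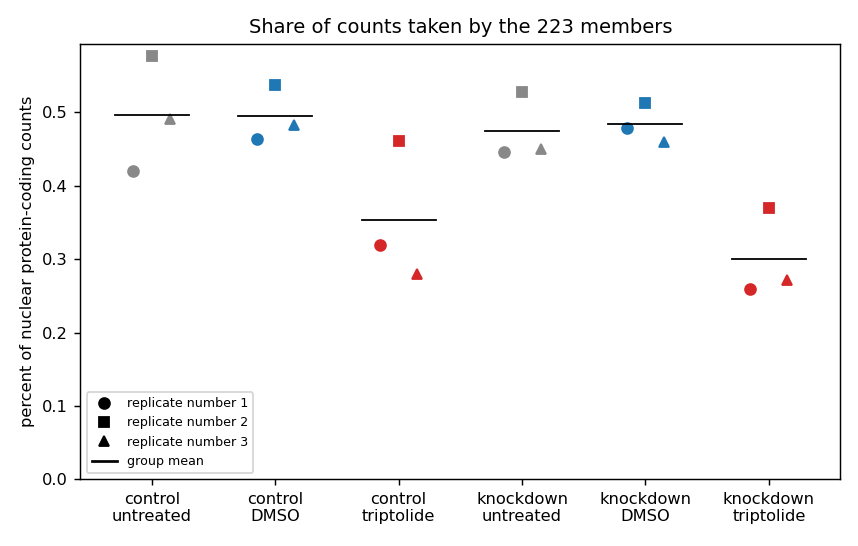
Share of counts taken by the 223 chromosome 19 ZNF genes in each library (percent of nuclear protein-coding counts, y axis) by group (x axis), with each point 1 library and each bar the group mean. The 6 triptolide libraries lie between 0.259 and 0.461%, below the 6 DMSO libraries of 0.459 to 0.537% except that the highest triptolide value of the control line is just above the lowest DMSO value of the knockdown line.

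In the control line, triptolide lowered 74 of the 223 members and raised 12 (edgeR's quasi-likelihood test, adjusted p under 0.05). That is 33.2% and 5.38% of the members, against 16.0% lower and 14.9% higher over all 21285 genes tested. Without ZNF439 and ZNF671, 10 of 221 (4.52%) were higher. In the knockdown line, 100 members (44.8%) were lower and 9 (4.04%) higher, against 18.9% and 16.7% of all genes, and 7 (3.17%) were higher without these genes, neither of which fell. The median log2 change of the members was -0.43 in the control line and -0.67 in the knockdown line, beside 0.03 and 0.04 over all genes. Protein-coding genes at 0.5 CPM or more, the set closer to the members, had medians of -0.09 and -0.11. Of the 223, 159 had a negative change in the control line and 178 in the knockdown line. With the replicate number as a block, more than 1.5 times as many members rose (25 in the control line against 26.1% of all genes, 19 in the knockdown line against 29.1%, or 23 and 17 without ZNF439 and ZNF671), while those that fell numbered 105 (26.0% of all genes) and 138 (28.1%).

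The 2 lines share no library in these comparisons. They are not independent, since same-numbered libraries resembled each other across the lines and the same fit estimated the spread for both. Lower in both were 72 members (32.3%, against 14.3% of all genes) and higher in both 8 (3.59%, against 12.6%), and none was called in opposite directions. Without ZNF439 and ZNF671, 6 of 221 (2.71%) were higher in both. With the block, 14 were higher in both, or 12 without these genes. A further 35 were called in 1 line only, 28 of them as lower in the knockdown line. ZNF genes on other chromosomes behaved much the same: of 218, 88 were lower and 12 higher in the control line (median -0.60), and 107 and 10 in the knockdown line (median -0.73). The 789 other protein-coding genes of chromosome 19 had medians of 0.02 and 0.11, with 104 lower and 84 higher in the control line. No test of the members against either of these sets was run.

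**Figure D2:**
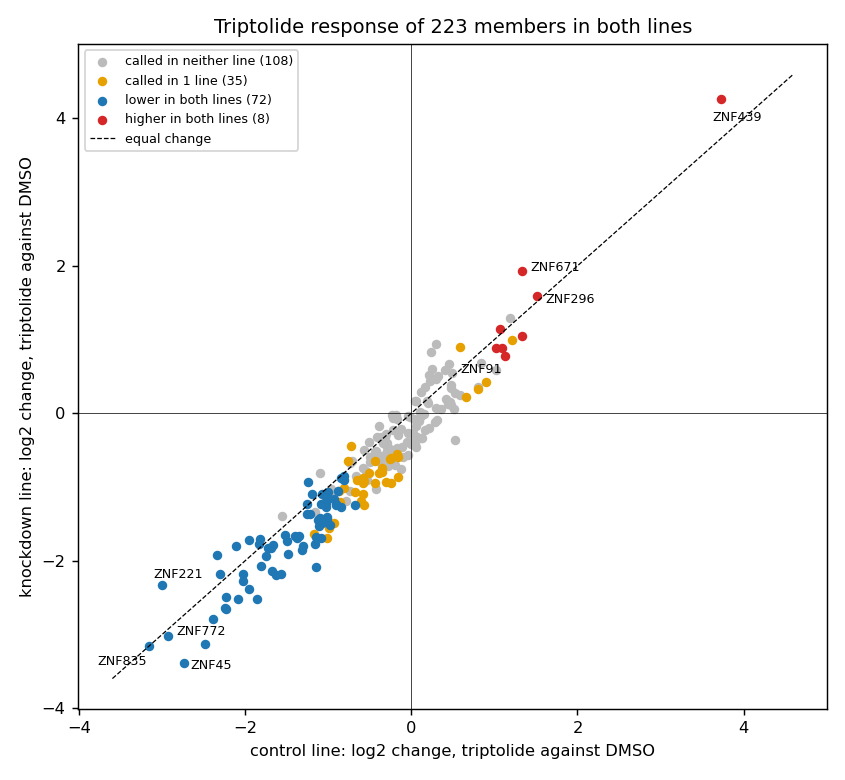
Log2 change with triptolide against DMSO in the control line (x axis) and in the knockdown line (y axis), each point 1 of the 223 members and the colour its call in both lines. The 72 members lower in both lines fill the lower left, with ZNF45, ZNF772 and ZNF835 at its edge, and ZNF439 stands alone at the upper right with 3.72 and 4.26.

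How these changes split into higher and lower depended on the scaling. Scaled to total counts, 146 members were lower and 1 higher in the control line, and 172 and 2 in the knockdown line. Scaled to mitochondrial mRNA, the counts were 102 and 1, and 189 and 1. These scalings moved the median of all genes by -0.63 and -0.71 (total counts) and by -0.82 and -1.41 (mitochondrial mRNA) in the control and knockdown lines. Relative to the median of all genes, the median of the members was -0.37 to -0.46 in the control line and -0.69 to -0.71 in the knockdown line over the scalings tried. Apart from ZNF439, no member was called higher in both lines under every scaling. For the other 7, the call as higher in both lines therefore holds only relative to the bulk of nuclear transcripts. ZNF439 and, among these 7, ZNF671 are members only through their triptolide libraries.

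The members with the largest falls in both lines came from several clusters. The 12 that head this order were ZNF45, ZNF772, ZNF835, ZNF221, ZNF784, ZNF274, ZNF285, ZNF653, ZNF628, ZNF551, ZNF787 and ZNF8, with changes of -2.03 to -3.16 in the control line and -2.17 to -3.39 in the knockdown line. ZNF45 in cluster 7 was at 15.2, 16.3 and 13.1 CPM in the 3 DMSO libraries of the control line and at 1.86, 2.85 and 1.95 with triptolide. In the knockdown line it went from 15.7, 16.0 and 15.3 to 1.39, 1.45 and 1.61. Every triptolide library was far below every DMSO library, with log2 changes of -2.74 (SE 0.21, edgeR adjusted p = 2.2e-07) and -3.39 (SE 0.21, 5.1e-08). This is a fold of 6.68 and of 10.5.

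ZNF772 in cluster 9 was at 16.1, 17.98 and 16.3 CPM with DMSO and at 1.48, 3.19 and 1.95 with triptolide in the control line. The knockdown line had 18.4, 17.6 and 20.1 against 2.20, 2.38 and 2.32. The 2 groups were again far apart in both lines, with log2 changes of -2.93 (SE 0.25) and -3.02 (SE 0.25). ZNF835, also in cluster 9, had the largest fitted fall in the control line (-3.16), but from a level of only 1.71 to 2.06 CPM with DMSO to 0.127 to 0.338 CPM, so its size is less certain (SE 0.44). ZNF784 was at 0 counts in 1 triptolide library of the knockdown line.

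ZNF274 recruits SETDB1 to the ends of other zinc finger genes. It went from 31.0, 25.2 and 28.9 CPM with DMSO to 5.29, 6.96 and 4.96 with triptolide in the control line. In the knockdown line it went from 29.7, 23.2 and 27.2 to 5.22, 5.98 and 6.54. The groups did not overlap, and the log2 changes were close to each other, -2.31 (SE 0.21, edgeR adjusted p = 1.6e-06) and -2.17 (SE 0.21, 1.8e-06).

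Among the most abundant members, some fell and others did not. ZNF146 was at 78.1, 90.6 and 88.4 CPM with DMSO and at 20.6, 34.3 and 28.3 with triptolide in the control line. The knockdown line had 92.0, 94.5 and 98.7 against 13.7, 24.6 and 23.9, so the groups were separate in both (log2 change -1.63 and -2.20, SE 0.24 each). ZNF121 fell less, from 109, 113 and 124 to 52.5, 61.8 and 56.1 CPM in the control line and from 115, 96.1 and 116 to 42.6, 47.4 and 50.4 in the knockdown line (-1.02 and -1.22, SE 0.16 each). ZNF350 (ZBRK1), a KRAB repressor that binds BRCA1, was at 41.8, 60.4 and 39.5 CPM with DMSO and at 12.1, 17.3 and 10.5 with triptolide in the control line, a log2 change of -1.83, beside -1.78 in the knockdown line. ZNF562, ZNF317 and ZNF552 also fell in both lines. For ZNF562, 50.7% of the exon length overlaps a gene on the opposite strand, so its change (-1.49 and -1.74) may hold reads of that gene if strand was not used in counting.

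ZNF91, the most abundant, was not called. It had 48.3, 140 and 57.6 CPM with DMSO and 55.8, 221 and 67.3 with triptolide in the control line. In the knockdown line it had 54.0, 129 and 85.2 against 73.1, 206 and 114. The libraries numbered 2 were the highest in every group, and this spread was larger than the change (log2 0.49, SE 0.59, edgeR adjusted p = 0.57 in the control line, and 0.55, SE 0.59, 0.49 in the knockdown line). With the replicate number as a block, it was called higher in both lines. ZNF83, ZNF28 and ZNF468, also among the 10 most abundant, were not called in either line, with changes of 0.13 to 0.58. With the block, ZNF83 was called higher in the knockdown line (edgeR adjusted p = 0.021), and ZNF28 (0.0055) and ZNF468 (0.023) in the control line.

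**Figure D3:**
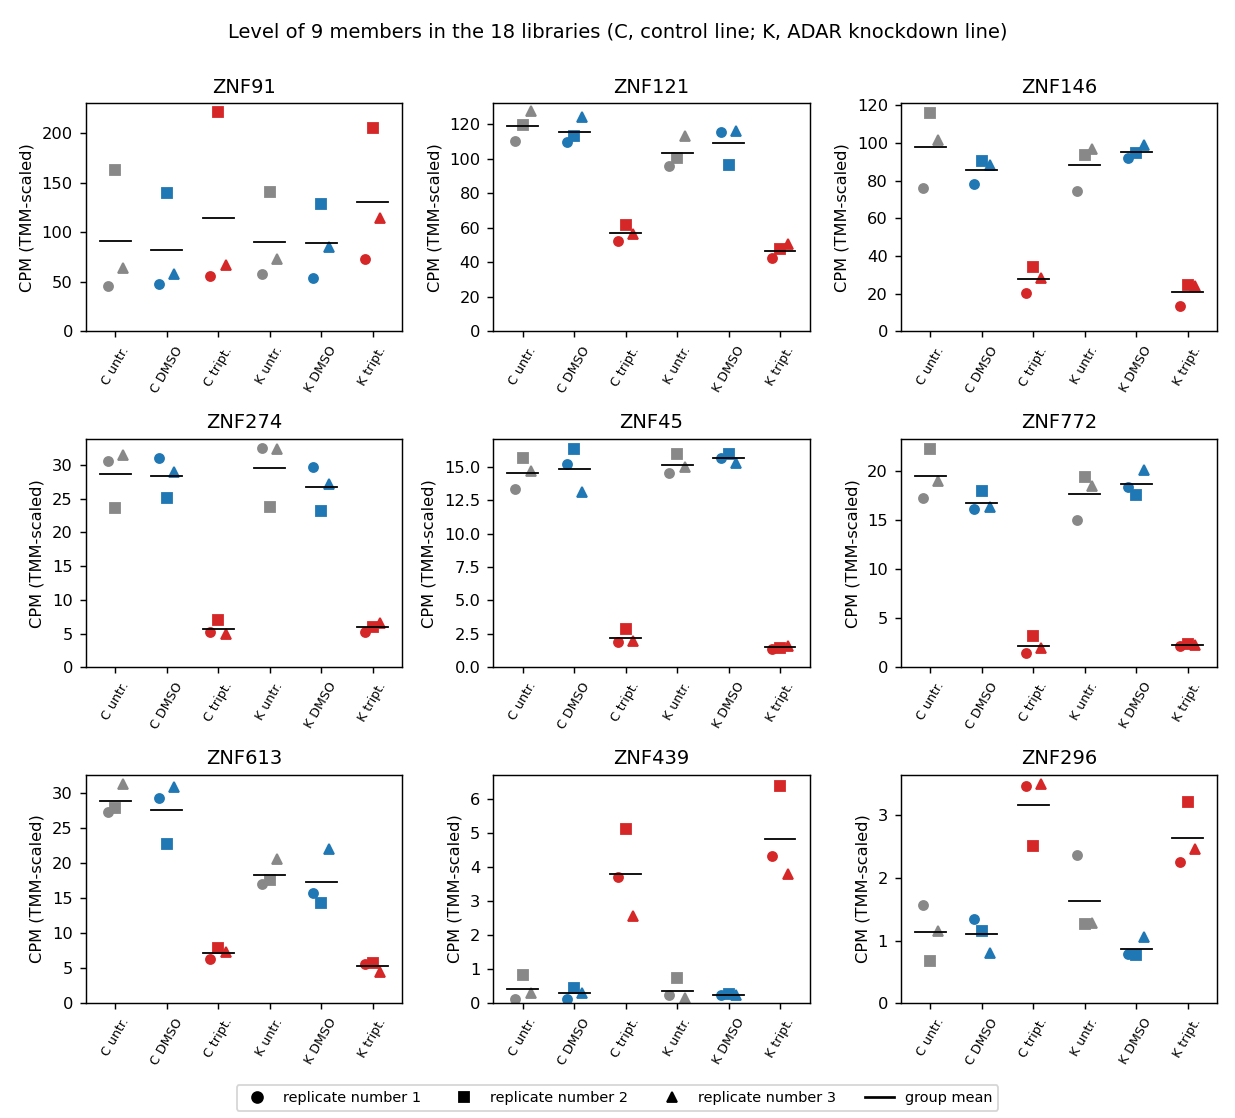
TMM-scaled CPM on linear axes (y axis) of 9 members, 1 panel each, in the 18 libraries by line and treatment (x axis; C, control line; K, knockdown line), with the shape of a point giving the replicate number and the bar the group mean. ZNF45, ZNF274 and ZNF772 lie low in all 6 triptolide libraries (at most 6.96 CPM), ZNF439 is at 2.55 CPM or more only there, and in ZNF91 the libraries numbered 2 lie above the others in every group.

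The member with the largest rise was ZNF439 in cluster 3. It was nearly silent without triptolide, at 0.120, 0.458 and 0.290 CPM with DMSO and 0.130, 0.840 and 0.304 untreated in the control line, and reached 3.72, 5.12 and 2.55 with triptolide. In the knockdown line it went from 0.240, 0.276 and 0.227 to 4.32, 6.40 and 3.79. The log2 changes were 3.72 and 4.26, given without a test because these high libraries are what made it a member.

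The other 7 members higher in both lines, on the TMM scale, were ZNF296, ZNF671, ZNF132, ZNF324, ZNF563, ZNF66 and ZNF57, with changes of 1.02 to 1.51 in the control line and 0.78 to 1.93 in the knockdown line. Like ZNF439, ZNF671 is a member only through the libraries in which it was high, so its rise is a description. It had only 6 to 30 counts in a library. ZNF132 and ZNF671 are known for silencing by promoter methylation in carcinomas. ZNF296 was at 1.34, 1.16 and 0.806 CPM with DMSO and 3.47, 2.51 and 3.50 with triptolide in the control line. The groups did not overlap, and its call was kept whichever library was left out. The other 6 each lost their call when some 1 library was left out. For ZNF57, 75% of the exon length overlaps a gene on the opposite strand. ZNF714, ZNF433 and ZNF461 were called higher in the control line only (1.21, 0.81 and 0.90), and the imprinted ZNF331 in the knockdown line only (0.89). With the block, ZNF714 was also called in the knockdown line (edgeR adjusted p = 0.0038) and ZNF331 also in the control line (0.0094).

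Along the chromosome, a gap of more than 1 Mb between members was taken to end a cluster, which gave 9 clusters of at least 3 members and 6 scattered genes. A gap of 0.5 Mb gave 10 clusters and a gap of 2 Mb gave 6, and cluster medians were not taken at these gaps. In the control line, the median fall was largest in cluster 2 (13 members, 7069714 to 9903856 on GRCh37), at -1.02, beside -1.11 in the knockdown line. There, 7 members were lower in both lines and none was higher. Cluster 7 (22 members, 44100544 to 45579736) was next in the control line with -1.01 and had the largest fall in the knockdown line, -1.40, with 12 members lower in both. It holds ZNF45, ZNF221 and ZNF285. Cluster 5, with only 5 members (35168544 to 35455133), had -0.86 and -1.28 and 3 lower in both.

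The clusters at the other end of this order were cluster 1 (5 members, 2819866 to 2944969) with 0.04 and -0.43, and cluster 3 (21 members, 11594242 to 12750912) with 0.03 and -0.33. Cluster 3 had 1 member lower in both lines and holds ZNF439 and ZNF563. Clusters 4 (35 members, 19779605 to 24312770), 6 (23, 36673178 to 38307940), 8 (36, 52074536 to 54083523) and 9 (57, 55987984 to 58992597) had control line medians of -0.31, -0.58, -0.31 and -0.50, with 6, 9, 10 and 22 members lower in both. By summed level the largest was cluster 8 with 646 CPM, then cluster 4 with 482 and cluster 9 with 459. The differences between clusters are descriptions, since members of a cluster are related genes and no test over them was run.

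**Figure D4:**
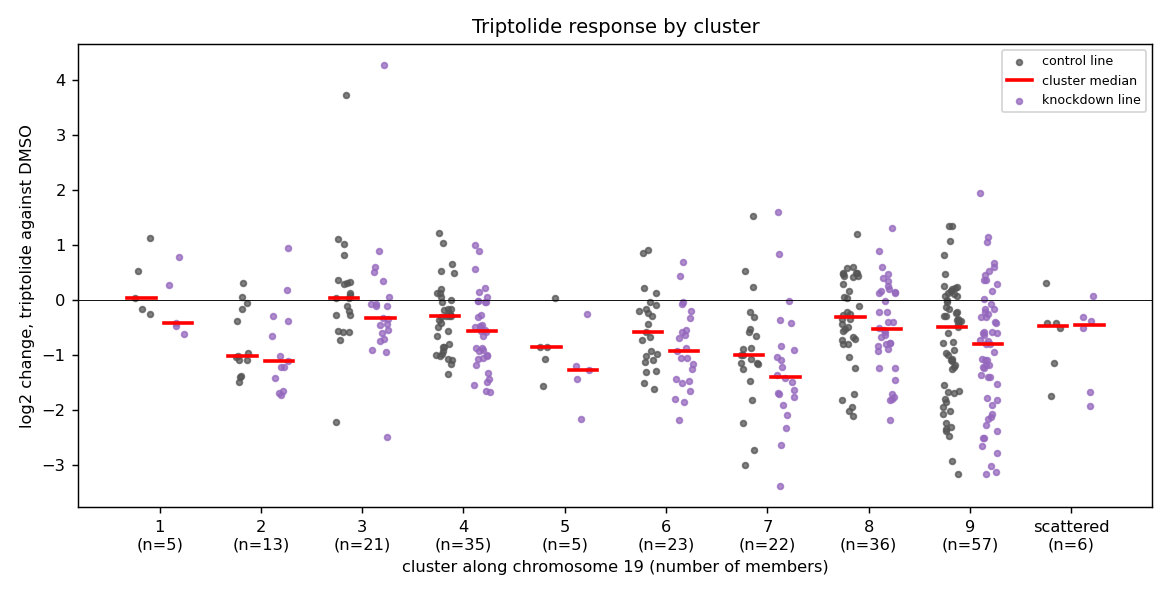
Log2 change with triptolide against DMSO (y axis) of each member, by cluster in order along chromosome 19 (x axis), for the control line and the knockdown line, with a bar at the median. Clusters 2 and 7 have control line medians of -1.02 and -1.01 and clusters 1 and 3 of 0.04 and 0.03.

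The change can be set beside features read from the genes, as a description with no test. Members with a KRAB box motif had medians of -0.35 and -0.60 in the control and knockdown lines, and those without of -0.67 and -0.88. The motif was present in 44 of the 71 members lower in both lines that were read and in 6 of the 8 higher in both (5 of 6 without ZNF439 and ZNF671). In the 172 members with little shared or overlapping sequence, the medians were -0.50 and -0.77, beside -0.43 and -0.67 over all members. Whether shared or overlapping reads bear on the fall was not tested.

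Promoters of 196 members were found in the RefSeq table, of which 195 matched GRCh37 exactly and once, and the 250 bases before the start were searched on both strands. CCGGAAG, a core bound by ETS factors, was found in 32.1% of the 196, against 12.01% of 15210 protein-coding genes. These 15210 were taken at any level of expression, unlike the members. Promoters of related neighbours can also share sequence, so matches in members are not independent of each other. CCAAT, the core of the NF-Y site, was in 50.5% against 34.8%, and TATAAA in 2.04% against 9.13%. GGGCGG, a core bound by SP factors, was in 65.8% against 56.9%, and TGACGTCA in 2.55% against 2.36%. Of the 70 CCGGAAG matches, 59 lay within 100 bases of the start, at a median of 24 bases before it. Members lower in both lines held CCGGAAG in 32.3% of 62 promoters, those higher in both in 4 of 8 and the rest in 31.2% of 125. CCAAT was in 37.1% of the lower, 7 of the 8 higher and 55.2% of the rest. Of the 6 higher in both without ZNF439 and ZNF671, 3 held CCGGAAG and 5 CCAAT. Membership of the 8 is known from the values, so these shares are descriptions.

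The lines below give the 250 upstream bases of 4 members whose CCGGAAG match lies close to the start, 2 of them lower and 2 higher in both lines. They are from RefSeq, 5′ to 3′ on the strand of the gene, with CCGGAAG and CCAAT in capitals, on either strand. On GRCh37, they are chr19:21950382-21950631 on the minus strand (ZNF100), chr19:58257933-58258182 on the plus strand (ZNF776), chr19:20958860-20959109 on the plus strand (ZNF66) and chr19:58951521-58951770 on the minus strand (ZNF132).

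ZNF100: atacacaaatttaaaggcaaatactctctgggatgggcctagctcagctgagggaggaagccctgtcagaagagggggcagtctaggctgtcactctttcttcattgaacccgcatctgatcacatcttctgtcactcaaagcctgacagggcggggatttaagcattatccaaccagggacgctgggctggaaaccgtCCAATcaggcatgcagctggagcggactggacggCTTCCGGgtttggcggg
ZNF776: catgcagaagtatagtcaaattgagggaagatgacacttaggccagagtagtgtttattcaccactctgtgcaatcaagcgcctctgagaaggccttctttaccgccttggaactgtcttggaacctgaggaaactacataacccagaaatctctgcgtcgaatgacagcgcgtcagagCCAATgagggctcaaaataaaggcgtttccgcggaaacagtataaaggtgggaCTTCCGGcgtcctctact
ZNF66: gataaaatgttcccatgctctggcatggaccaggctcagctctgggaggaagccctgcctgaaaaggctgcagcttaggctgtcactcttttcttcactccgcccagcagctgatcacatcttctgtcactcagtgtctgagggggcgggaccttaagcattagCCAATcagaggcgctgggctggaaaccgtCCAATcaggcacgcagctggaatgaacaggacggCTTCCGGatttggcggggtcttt
ZNF132: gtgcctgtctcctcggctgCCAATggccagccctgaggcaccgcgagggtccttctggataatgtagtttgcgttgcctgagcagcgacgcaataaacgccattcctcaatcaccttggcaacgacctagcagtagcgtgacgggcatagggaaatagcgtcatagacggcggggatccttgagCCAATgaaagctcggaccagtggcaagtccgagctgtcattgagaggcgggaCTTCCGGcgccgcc

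In these promoters the match begins 17, 18, 23 and 14 bases before the start. ZNF100 and ZNF66 are both in cluster 4, and their promoters share a run of 29 identical bases, yet on the TMM scale they moved in opposite directions. ZNF100 was at 15.7, 20.5 and 18.8 CPM with DMSO and 7.70, 12.4 and 5.81 with triptolide in the control line, a log2 change of -1.08 (edgeR adjusted p = 0.00756). ZNF66 was at 3.42, 4.37 and 4.71 CPM and rose to 6.89, 10.7 and 7.81, a change of 1.02 (adjusted p = 0.00836). Neither pair of groups overlapped. Scaled to total counts, the change of ZNF66 was 0.38 in the control line and 0.18 in the knockdown line. Scaled to mitochondrial mRNA, it was 0.30 and -0.52. None of these 4 values was called.

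The partners of the family were followed in a list of 32 genes of the KRAB co-repressor pathway. Of these, 10 were lower and 2 higher with triptolide in the control line, against 16.0% and 14.9% of all genes. The knockdown line had 11 lower and 3 higher, against 18.9% and 16.7%. The medians were -0.41 and -0.43, and with the block the counts were 16 and 4, and 17 and 5. SETDB1, the histone methyltransferase, fell by 2.23 and 2.43 on the log2 scale, and its cofactor ATF7IP by 2.69 and 3.30. SMARCAD1 (-2.15 and -2.56), a chromatin remodeller, and TASOR (-1.56 and -1.92), a subunit of the HUSH complex, were also lower in both lines. HDAC1 (0.67 and 0.77) and CHD3 (0.42 and 0.49), both in the NuRD complex, were higher on the TMM scale, and none of the list was called higher when counts were scaled to the total or to mitochondrial mRNA. Fewer of the list were also called higher without a filter (0 and 1) and in the libraries compared alone (1 and 1). The same held with any single library of a comparison left out, so these calls are not firm. TRIM28 itself was not called (0.48, edgeR adjusted p = 0.251, and 0.44, 0.269) except with the block (0.016 and 0.022).

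ADAR knockdown changed no member by the test. In untreated cells, with DMSO and with triptolide, 0 of the 223 passed edgeR's quasi-likelihood test, against 0.0987%, 0.094% and 0.0658% of all genes called in either direction. An unadjusted p under 0.05 was reached by 3, 2 and 11 members. With the replicate number as a block, 0 again passed, with 8, 10 and 39 at an unadjusted p under 0.05, and DESeq2 gave 0 with 4, 2 and 11. The share of all genes at an unadjusted p under 0.05 is not given here or below. These counts are therefore not read as an excess among the members. The median difference of knockdown minus control was -0.08 untreated (154 negative), 0.01 with DMSO (107 negative) and -0.25 with triptolide (192 negative, beside a median of -0.04 over all genes).

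Under triptolide, 77 members were lower in the knockdown library of every same-numbered pair and 5 were higher in every pair, against 18.4% and 14.1% of all genes. The 3 knockdown libraries lay all below the 3 control libraries in 14 members (3.66% of all genes) and all above them in 1 (2.34%). By replicate number, the median differences were -0.27, -0.37 and -0.03, with 175, 183 and 119 of 223 members lower, so the downward shift was nearly missing in the pair numbered 3. Without replicate 2 of the control line with triptolide, in a fit that kept its knockdown partner, the median was -0.024. ZNF genes on other chromosomes had a median of -0.17, with 175 of 218 negative. In untreated cells the knockdown libraries were all below in 8 members (2.49% of all genes) and all above in 0 (2.31%), and with DMSO in 11 (3.27%) and 6 (3.25%).

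The members with the smallest p under triptolide were ZNF45, ZNF112, ZNF234, ZNF155, ZNF229 and ZNF841. Apart from ZNF841 they lie in cluster 7, and their differences were -0.58 (ZNF45), -0.99 (ZNF112), -0.64 (ZNF234), -0.82 (ZNF155) and -0.62 (ZNF229), each with an edgeR adjusted p of 1. With the block, the lowest adjusted p among them was 0.0996, for ZNF112. The test of whether triptolide acted differently in the 2 lines called 0 members (0.0% of all genes), with 2 at an unadjusted p under 0.05, ZNF45 (log2 difference -0.65) and ZNF492 (-0.71). The block also gave 0 (21 at an unadjusted p under 0.05), as did DESeq2 (3). Thus the larger number of falls in the knockdown line was not shown to differ from that in the control line.

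DMSO against untreated cells changed no member in either line by edgeR (0 of 223 in each, against 0.0% of all genes, with 0 and 1 at an unadjusted p under 0.05). DESeq2 also gave 0, with 0 and 1 at an unadjusted p under 0.05, and the block gave 0, with 0 and 2.

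One stretch of cluster 8 stood out in the knockdown comparisons of untreated and DMSO cells. It was chosen after its values were seen, so it is a description. It holds 10 neighbouring members, ZNF175, ZNF649, ZNF613, ZNF350, ZNF615, ZNF614, ZNF432, ZNF841, ZNF616 and ZNF836, from 52074536 to 52674896. All 10 were lower in knockdown than in control cells in each treatment, with median differences of -0.47 untreated (-0.65 to -0.22), -0.45 with DMSO (-0.67 to -0.07) and -0.36 with triptolide. Untreated, all 10 were lower in every same-numbered pair (14.4% of all genes) and 4 lay wholly below the control libraries (2.49%). With DMSO the counts were 9 (17.6%) and 4 (3.27%), and with triptolide 7 (18.4%) and 1 (3.66%). None passed the test, with or without the block. The other 26 members of cluster 8 had medians of -0.10 untreated and -0.01 with DMSO. With triptolide their median was -0.24, with 24 of the 26 negative, so the stretch differed less from them there.

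ZNF613 showed the largest difference of the stretch. It was at 27.3, 27.9 and 31.3 CPM in untreated control cells and at 16.97, 17.6 and 20.6 in untreated knockdown cells. With DMSO it was at 29.3, 22.7 and 30.9 in control cells and at 15.8, 14.3 and 22.0 in knockdown cells. The groups did not overlap in either treatment, with differences of -0.65 (SE 0.20, edgeR adjusted p = 0.907) and -0.67 (SE 0.20, 0.787), and with the block the adjusted p was 0.0782 and 0.0561. With triptolide, the same 10 genes had a median change of -1.48 in both lines. Of these, 7 were called in the control line and 8 in the knockdown line (9 and 9 with the block). ZNF432 alone did not fall, at 0.05 and 0.16. The other 26 had medians of -0.04 and -0.22, with 3 and 6 called (14 and 14 with the block). Their lowest changes, -1.05 and -1.47, lay within the range of the 10. The 12 other genes tested within the stretch had a median knockdown difference of -0.28 untreated, -0.79 with DMSO and -0.11 with triptolide, and none was called.

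**Figure D5:**
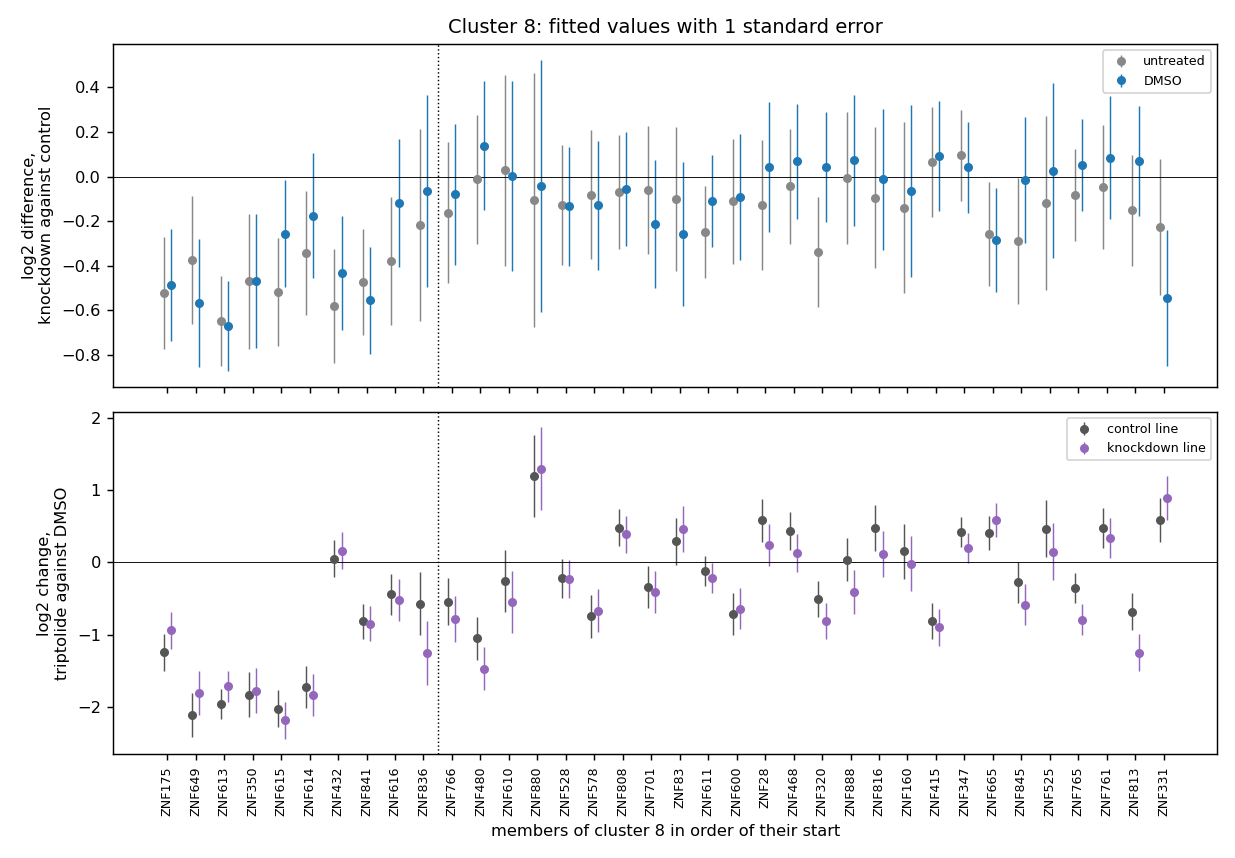
Log2 difference of knockdown minus control cells, untreated and with DMSO, and log2 change with triptolide (y axes) for the 36 members of cluster 8 in order along the chromosome (x axis), each point 1 member with a bar of 1 SE. The 10 members left of the dotted line lie below 0 in both knockdown comparisons, with medians of -0.47 and -0.45, and at a median of -1.48 with triptolide.

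Libraries sharing a replicate number also resembled each other in these genes. The library numbered 2 was the highest of its group in all 6 groups for 52 members (23.3%), against 8.45% of all genes. The library numbered 1 was the highest in all 6 for 8 members (3.59%, against 10.5% of all genes). It was the lowest in all 6 for 30 members, a count not made over all genes. In ZNF91 the library numbered 2 was 1.85 to 3.59 times the mean of the other 2, in ZNF880 1.88 to 2.81 times, in ZNF43 1.36 to 1.71 times and in ZNF350 1.29 to 1.90 times. What sets the libraries numbered 2 apart was not tested. The median change with triptolide, taken within each replicate number, was -0.46, -0.22 and -0.64 in the control line and -0.80, -0.56 and -0.74 in the knockdown line, negative in all 6.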

How the data were processed

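Total RNA of 18 libraries (6 groups of 3) was sequenced from a stranded kit, per the labels' protocols. The deposited values are raw counts, 1 file per library. Per the submitters' processing notes, the tools were STAR 2.4.2a, HTSeq 0.6.1, DESeq2 1.4.5 and R 3.1 with hg19; the strand setting is not given in the sources used here. The rows for reads assigned to no gene held 24.9 to 35.4% of all counts in a library (not uniquely aligned 10.2 to 22.6%, ambiguous 5.76 to 8.37%) and stayed out of library sizes. Of 60252 gene IDs, 97.6% matched GENCODE 44 lifted to GRCh37.

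Counts were scaled by TMM and tested two-sidedly with edgeR 4.0.16 (quasi-likelihood F test, R 4.3.3), all 18 libraries in 1 fit (12 residual degrees of freedom, 21285 genes after filterByExpr, Benjamini-Hochberg adjusted p under 0.05). The script was tested on simulated data. Each SE is the log2 change over the square root of F. Nothing says that replicates were separate cultures, so p-values measure the spread between these libraries. No libraries were duplicates (lowest chi-square per degree of freedom 62.0).

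Residuals of libraries with the same replicate number correlated at 0.43 to 0.85 (45 pairs) and others at -0.67 to -0.019 (90 pairs), and 18 of 18 libraries were closest to their own number. The numbers therefore pair the libraries, and the fit with a replicate block (10 degrees of freedom) is given where it changes the call of a gene named as called or not called, or moves a count by over 1.5 times. The members, gene lists and tests were chosen with earlier results of these data known. Members were named by rule: the 12 lower and 12 higher with the largest change with triptolide in both lines, those called or with the smallest p for knockdown, the most abundant, the extremes of each cluster and those nearest the limit. DESeq2 1.42.0, other scalings, no filter, fewer libraries and leaving out each library were alternatives. The leukocyte marker list is not reported here in full.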

Additional observations from a re-analysis of the deposited data

How the results depend on the processing

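The direction of the median change with triptolide was the same under every alternative run. With the replicate block, 105 members were lower and 25 higher in the control line, and 138 and 19 in the knockdown line, with 103 lower and 14 higher in both. Total count scaling gave medians of -1.06 and -1.37, counts of 146 lower and 1 higher, and 172 and 2, with 145 and 1 in both lines. Mitochondrial mRNA scaling gave medians of -1.16 and -2.05, counts of 102 and 1, and 189 and 1, with 102 and 1 in both lines. It also gave median knockdown differences of -0.26 untreated and 0.61 with DMSO (total counts 0.13 with DMSO), and in the knockdown line it turned the direction of ZNF57 (-0.59), ZNF563 (-0.48), ZNF66 (-0.52), ZNF468 (-1.26), ZNF331 (-0.53), ZNF132 (-0.30) and ZNF324 (-0.27). Without a filter 5 and 6 members were higher, with 4 in both lines.

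Leaving out each library in turn gave 60 to 82 members lower and 6 to 12 higher in the control line, and 87 to 104 and 4 to 9 in the knockdown line. The fewest higher were 6 without control DMSO replicate 1 or control triptolide replicate 2, and 4 without knockdown DMSO replicate 3. The medians ranged from -0.64 to -0.34 and from -0.85 to -0.56. The median knockdown difference ranged from -0.17 to 0.038 untreated, from -0.025 to 0.10 with DMSO and from -0.36 to -0.024 with triptolide. Among named members, 710 of 768 such values kept their call, and the 12 lower members kept theirs in each. Counts of the co-repressor list went from 7 to 13 and from 7 to 15 for lower and from 1 to 1 and from 1 to 2 for higher. That list gave 16 and 4, and 17 and 5, with the block, 20 and 0, and 29 and 0, with mitochondrial mRNA scaling, 22 and 0, and 25 and 0, with total counts, 0 and 1 higher without a filter and 1 and 1 higher in the libraries compared alone. This list, and the counts without ZNF439 and ZNF671, were added to the alternatives after seeing the data. The share of counts ranged from 0.301 to 0.338, 0.307 to 0.317 and 0.133 to 0.164% in untreated, DMSO and triptolide libraries of the control line, and from 0.285 to 0.303, 0.334 to 0.343 and 0.120 to 0.148% in the knockdown line. Of nuclear protein-coding counts it was 0.496, 0.494 and 0.353%, and 0.475, 0.484 and 0.300%. Members at under 1 CPM rest on few counts, and reads shared with related genes were not recovered.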
